A study of Homo sapiens with 6 samples.

Results

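Fibronectin and a group of matricellular proteins were followed through the transcriptome of K1 cells, a cell line of human papillary thyroid carcinoma. The members were FN1, TNC, THBS1, SPARC, FBN1, FBLN1, LOX, LOXL2, TGFBI and POSTN, taken by gene symbol as 10 of the 20522 features in each library file and 10 of the 20322 features in the group table. K1 cells were transfected with a negative control small interfering RNA (NC) or with an interfering RNA against NEAT1_2, the long isoform of the noncoding RNA NEAT1 (si-NEAT1_2). Per-library values came from 3 NC and 3 si-NEAT1_2 mRNA-seq libraries, and the group table added 1 value for each group. All cells shared the K1 background and a transfection, no untransfected cells were included, and the study's methods describe 3 pairs of NC and si-NEAT1_2 cells without saying whether these were separate cultures. The p-values therefore measure the spread between these libraries, part of which may be technical. How far NEAT1_2 was depleted was not analysed here.

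Fibronectin, encoded by FN1, is secreted as a dimer and assembled by cells into fibrils that bind integrins and other matrix proteins. Matricellular proteins such as thrombospondin 1, tenascin C and SPARC are secreted into the matrix, where they modulate adhesion more than they bear load, whereas fibrillin 1 and fibulin 1 belong to microfibrils and elastic fibres. Lysyl oxidases cross-link collagen and elastin. In thyroid carcinoma FN1 is a known marker of the tumour cells, and it was one of the genes that the study followed downstream of NEAT1_2, together with TGM2 and the NF-kB subunit p65.

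The region around the transcription start was taken from RefSeq (GRCh38.p14) for the 9 members with an entry (LOXL2 had none). Each window ran from 250 bases before to 50 bases after the start. For LOX, with 3 windows listed, the one nearest the GENCODE gene start was used. The window's start lay 879 bases from the GENCODE gene start for FBN1, 645 for FBLN1 and 250 for SPARC. For the others this distance was at most 104 bases. Shown are the windows of FN1, the most abundant member, and of THBS1, which had the lowest p of the members. Each of these held a motif that was searched for. Capitals mark the cyclic AMP response element TGACGTCA in FN1 (chr2:215436019-215436318, minus strand) and the TEAD motif GGAATG in THBS1 (chr15:39580829-39581128, plus strand).
FN1: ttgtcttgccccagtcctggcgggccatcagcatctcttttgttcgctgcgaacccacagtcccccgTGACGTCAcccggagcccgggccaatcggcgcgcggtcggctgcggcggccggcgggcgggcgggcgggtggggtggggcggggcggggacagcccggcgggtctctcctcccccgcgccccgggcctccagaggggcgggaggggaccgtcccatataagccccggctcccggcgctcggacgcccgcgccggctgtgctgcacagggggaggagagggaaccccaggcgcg
THBS1: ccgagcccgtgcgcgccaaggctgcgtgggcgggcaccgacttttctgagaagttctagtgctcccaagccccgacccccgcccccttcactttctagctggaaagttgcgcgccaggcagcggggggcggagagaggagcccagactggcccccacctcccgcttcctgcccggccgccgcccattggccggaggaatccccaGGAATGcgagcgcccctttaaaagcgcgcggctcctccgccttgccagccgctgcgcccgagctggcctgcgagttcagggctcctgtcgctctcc

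The FN1 element lay between bases -183 and -176 from the start, and FN1 was the 1 member of 9 to hold it, against 1.84% of 34796 RefSeq windows. The TEAD motif of THBS1 lay between bases -46 and -41, was searched on both strands like all motifs here, and was held by 3 of the 9 members (THBS1, SPARC and FBN1) and by 14% of all windows. The kappaB motif, the sequence that NF-kB subunits bind, was found in the window of 1 member, FBLN1, and in 11.3% of all windows. The FN1 window held no letters matching that motif, which says nothing of other regions of the gene. The paper predicted p65 sites in the FN1 promoter, and in its luciferase assays mutating a particular site abolished the activation by p65. Whether those sites lie in this window was not analysed here. The letters TATAA were found in FN1, TNC and POSTN and in 20.5% of windows, the AP-1 motif TGANTCA in POSTN and in 7.73%, and the CArG motif in 0 members and in 1.3%. A match of letters is a description of the sequence and not a binding site.

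The libraries held between 22798631 and 27066025 counts, and 13109 genes, 9 of the members among them, had enough counts to be tested. Levels are given as FPKM, the authors' values scaled for transcript length and library size, which can be compared between genes, and as CPM, library-scaled counts corrected with TMM factors (trimmed mean of M values), which were used for each gene between libraries. The si-NEAT1_2 replicate 2 library stood apart from the others, with the lowest TMM factor (0.922, against 0.995 to 1.03) and the lowest mean correlation of log2 CPM with the other 5 libraries (0.967, against 0.971 to 0.983). In the marker check, PAX8 was between 113 and 169 FPKM, whereas the thyroid markers TSHR and NKX2-1 were under 1 FPKM in every library. Of 6 epithelial markers 4, KRT7, KRT8, KRT18 and EPCAM, were at 1 FPKM or more in every library, CDH1 and KRT19 were under 1 FPKM, and all 4 endothelial and all 5 leukocyte markers were under 1 FPKM in every library. Of 7 fibroblast markers 4 were under 1 FPKM in every library, and their summed level was 25.2 to 29.8 FPKM in NC and 19.6 to 22.6 FPKM in si-NEAT1_2. LUM, the fibroblast marker at 1 FPKM or more in every library, had a log2 fold change of -0.39 (unadjusted p = 0.01, adjusted p = 0.170, edgeR), and its part in the members' differences was not tested.

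The members spanned a wide range of levels, from FN1 at the top to POSTN near 0. In NC cells the mean level was 2148 FPKM ± 85.4 (SD, n = 3) for FN1, 349 ± 40.0 for THBS1 and 223 ± 16.8 for TGFBI. SPARC followed with 176 ± 10.4 FPKM and LOXL2 with 168 ± 16.3 FPKM, and the ranges of these neighbours overlapped. TNC was at 37.0 ± 0.956 FPKM, FBLN1 at 8.69 ± 0.806, FBN1 at 4.87 ± 0.590, LOX at 2.38 ± 0.236 and POSTN at 0.0467 ± 0.0321. No other pair of neighbours in this order overlapped between the NC libraries. In si-NEAT1_2 cells the mean of TGFBI (277 FPKM) stood above that of THBS1 (202 FPKM), and LOXL2 (177 FPKM) above SPARC (169 FPKM).

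**Figure D1:**
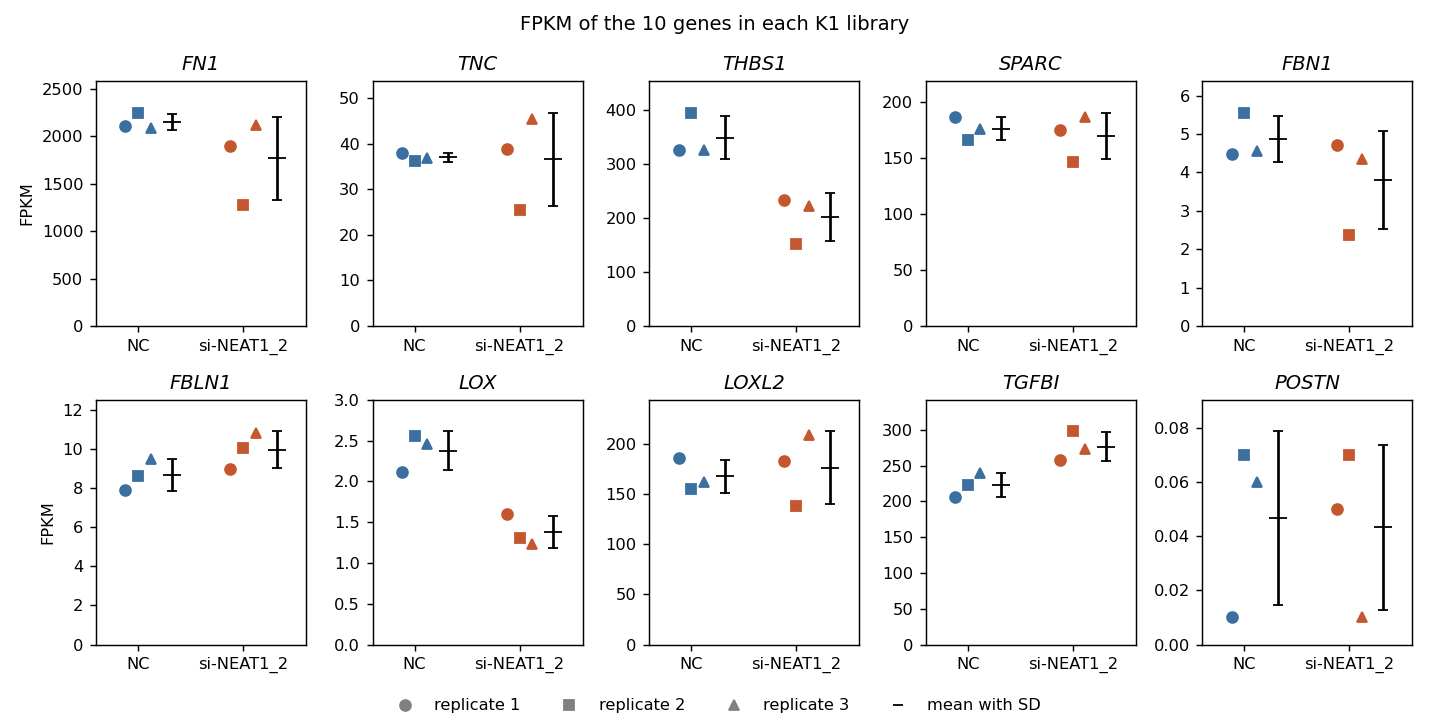
FPKM of each of the 10 genes (vertical axes from 0, one scale per gene) in the 3 NC and 3 si-NEAT1_2 libraries, with a symbol per replicate and the mean with SD in black. The si-NEAT1_2 points of THBS1 and LOX lie below, and those of TGFBI above, all NC points, and in FN1 the si-NEAT1_2 replicate 2 library lies apart at 1277 FPKM.

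A gene was called when it differed at least 2-fold with an adjusted p under 0.05 (edgeR, quasi-likelihood test, Benjamini-Hochberg adjustment). Of the 9 members tested 0 were called, beside 0% of all 13109 genes, while 4 members had an unadjusted p under 0.05, as did 1469 genes that were higher and 1696 that were lower. These members were THBS1 and LOX, which were lower, and TGFBI and FBLN1, which were higher in si-NEAT1_2 cells. The 2 lower and 2 higher members of 9 stand beside 12.9% and 11.2% of all genes. With DESeq2, 60 genes and 0 members were called. The members whose CPM values did not overlap between the groups were the same 4, THBS1, LOX, TGFBI and FBLN1, beside 14.1% of all genes lower and 15.4% higher. Leaving out NC replicate 1 brought the count of higher members to 0, as did leaving out NC replicate 2 and, separately, si-NEAT1_2 replicate 3. The count was 1 when NC replicate 3 was left out and also when si-NEAT1_2 replicate 2 was, while the count of lower members was 2 whichever library was left out. Over all genes the count in either direction moved as well, from 3165 of 13109 with all 6 libraries. It was 2735 of 13342, 1074 of 13300 and 2362 of 13323 without NC replicates 1, 2 and 3. Without si-NEAT1_2 replicates 1, 2 and 3 it was 4388 of 13284, 2118 of 13331 and 2189 of 13290. In these bulk samples fewer cells that express a gene and less of its RNA per cell cannot be told apart. The median log2 fold change was -0.08 over the 9 members and 0.01 over all genes tested.

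FN1 (ENSG00000115414, chr2:215360440-215436172, minus strand) was read at 15197, 16033 and 14735 CPM in NC replicates 1 to 3 and at 13238, 8057 and 15167 CPM in si-NEAT1_2 replicates 1 to 3. The groups overlapped, since si-NEAT1_2 replicate 3 exceeded an NC library and only si-NEAT1_2 replicate 2 was far below the others. The log2 fold change was -0.33 with a standard error of 0.217 and a 95% interval from -0.81 to 0.14 (adjusted p = 0.340, edgeR), so that no difference beyond the spread was detected. The exact two-sided permutation test gave p = 0.20, where the smallest value that 3 against 3 libraries allow is 0.10. FN1 took 1.54%, 1.66% and 1.5% of all counts in NC and 1.35%, 0.743% and 1.51% in si-NEAT1_2, and it was the gene with the highest count in 4 of the 6 libraries. It ranked 2 in si-NEAT1_2 replicate 1 and 5 in si-NEAT1_2 replicate 2.

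The weight of a single library in FN1 was large. Without si-NEAT1_2 replicate 2 the log2 fold change was -0.12, without si-NEAT1_2 replicate 3 it was -0.52 (unadjusted p = 0.0504, adjusted p = 0.302, edgeR), and with the library code as a covariate it was -0.52 (adjusted p = 0.247). By the library code in the labels, the difference of log2 CPM was -0.93 within code L2, which held 2 NC libraries and si-NEAT1_2 replicate 2, and -0.00 within code L3, which held 1 library of each group. Code L4 held si-NEAT1_2 replicate 1 alone. On the FPKM scale the lower value of si-NEAT1_2 replicate 2 was milder, 1277 against 1901 to 2246 FPKM, and the length implied by count, total and FPKM was 5816 bases in this library and 7097 to 7378 bases in the others. That ratio of 0.809 to the median of the other libraries was reached or undercut by 2% of the 5654 genes that averaged 5 or more in log2 CPM. Which isoforms of FN1 were counted was not analysed here.

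THBS1 (ENSG00000137801, chr15:39581079-39599466, plus strand), which encodes the adhesion-modulating and TGF-beta-activating thrombospondin 1, was read at 1980.5, 2387 and 2012 CPM in NC and 1495, 1128 and 1425 CPM in si-NEAT1_2 replicates 1 to 3. Every si-NEAT1_2 library was below every NC library. On the log2 scale the difference was -0.66 (standard error 0.154, 95% interval -0.995 to -0.317), or 1.58-fold lower. The unadjusted p was 0.00133 and ranked 70 among the 13109 genes, whereas the adjusted p was 0.170 (edgeR) and the exact permutation p 0.10. In FPKM the gene read 326, 395 and 326 in NC and 234, 151 and 222 in si-NEAT1_2, again without overlap. The difference was -0.96 within library code L2, -0.47 within L3 and -0.55 without si-NEAT1_2 replicate 2. Under DESeq2 the adjusted p was 0.00695, where 2.52% of 10820 genes were lower at an adjusted p under 0.05, and without si-NEAT1_2 replicate 1 it was 0.0493 (edgeR, log2 fold change -0.75), where 3.01% of 13284 genes were.

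TNC, encoding tenascin C, did not show such a separation. It was read at 243, 229.6 and 236 CPM in NC and 230.3, 162 and 277 CPM in si-NEAT1_2. The si-NEAT1_2 libraries held both the lowest and the highest value. Its log2 fold change of -0.08 (95% interval -0.47 to 0.30, adjusted p = 0.783, edgeR) turned to 0.09 without si-NEAT1_2 replicate 2, and it was -0.52 within library code L2 and 0.19 within L3.

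SPARC, a collagen-binding matricellular glycoprotein, was read at 506, 468 and 509 CPM in NC and 502, 537 and 548 CPM in si-NEAT1_2. The groups overlapped through si-NEAT1_2 replicate 1. The difference on the log2 scale was 0.10 with a 95% interval from -0.16 to 0.36 (adjusted p = 0.617, edgeR), and on log2(FPKM + 1) values it was -0.06. Within the library codes it was 0.14 (L2) and 0.11 (L3). POSTN, encoding periostin, another matricellular protein, was close to absent and not tested, with 1, 5 and 5 counts in NC and 4, 6 and 1 counts in si-NEAT1_2.

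TGFBI (ENSG00000120708, chr5:136028895-136063818, plus strand), an integrin-binding protein named for its induction by TGF-beta, was higher in si-NEAT1_2 cells. Values were 569, 601 and 657 CPM in NC and 709, 802 and 772 CPM in si-NEAT1_2. All si-NEAT1_2 libraries were above all NC libraries, and the same held on the FPKM scale, with 206, 224 and 239.7 in NC and 259, 298 and 274 in si-NEAT1_2. Its log2 fold change was 0.32 (standard error 0.126, 95% interval 0.04 to 0.60) with an unadjusted p of 0.0267 and an adjusted p of 0.178 (edgeR), and the exact permutation p was 0.10. It was 0.35 within library code L2 and 0.44 within L3.

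Of the microfibril and elastic fibre proteins, FBLN1 (fibulin 1, ENSG00000077942, chr22:45502238-45601135, plus strand) was read at 17.0, 17.1 and 19.4 CPM in NC and 20.9, 22.8 and 23.4 CPM in si-NEAT1_2. The groups did not overlap in CPM, but they did in FPKM, where NC replicate 3 at 9.51 exceeded si-NEAT1_2 replicate 1 at 8.99. A log2 fold change of 0.33 was found (95% interval 0.01 to 0.64, unadjusted p = 0.0433, adjusted p = 0.197, edgeR), with 0.32 within library code L2 and 0.46 within L3. FBN1, encoding fibrillin 1, was read at 50.8, 62.7 and 52.0 CPM in NC and 54.3, 28.9 and 50.6 CPM in si-NEAT1_2. As in FN1, 1 library was far below the rest, si-NEAT1_2 replicate 2, and the other si-NEAT1_2 values lay close to NC. For FBN1 the log2 fold change was -0.31 (95% interval -0.77 to 0.16, adjusted p = 0.369, edgeR) and -0.08 without that library. It was -0.48 without si-NEAT1_2 replicate 1 and -0.55 with the library code as a covariate (unadjusted p = 0.0440, adjusted p = 0.165, edgeR), with -0.98 within library code L2 and -0.01 within L3.

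The lysyl oxidases were present at different levels. LOX (ENSG00000113083, chr5:122063195-122078360, minus strand) was read at 8.03, 8.95 and 8.61 CPM in NC and 5.49, 4.37 and 5.24 CPM in si-NEAT1_2, from 211 to 222 counts in NC and 104 to 135 counts in si-NEAT1_2. No si-NEAT1_2 library reached the lowest NC library, and in FPKM the values were 2.11, 2.56 and 2.46 against 1.6, 1.31 and 1.23, again without overlap. LOX had a log2 fold change of -0.76 (standard error 0.191, 95% interval -1.18 to -0.34), or 1.69-fold lower, with an unadjusted p of 0.00221, an adjusted p of 0.170 (edgeR) and an exact permutation p of 0.10. It was -0.99 within library code L2 and -0.61 within L3, and DESeq2 gave an adjusted p of 0.0306. SRFBP1, which overlaps LOX on the opposite strand, had 158 to 456 counts per library and a log2 fold change of -0.53 (unadjusted p = 0.0944, adjusted p = 0.269, edgeR). Whether counting used the strand is not given in the sources used here, so reads of the 2 genes may not have been told apart.

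LOXL2, a LOX relative with the same catalytic domain, was read at 550.4, 457 and 494 CPM in NC and 550.1, 500.3 and 648 CPM in si-NEAT1_2. The groups overlapped. Its log2 fold change was 0.18 (95% interval -0.13 to 0.49, adjusted p = 0.429, edgeR), or 0.08 within library code L2 and 0.23 within L3, and the difference between LOX and LOXL2 in their response was not tested. ENTPD4, which overlaps LOXL2 on the same strand, had a log2 fold change of -0.60 (unadjusted p = 0.00751, adjusted p = 0.170, edgeR).

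**Figure D2:**
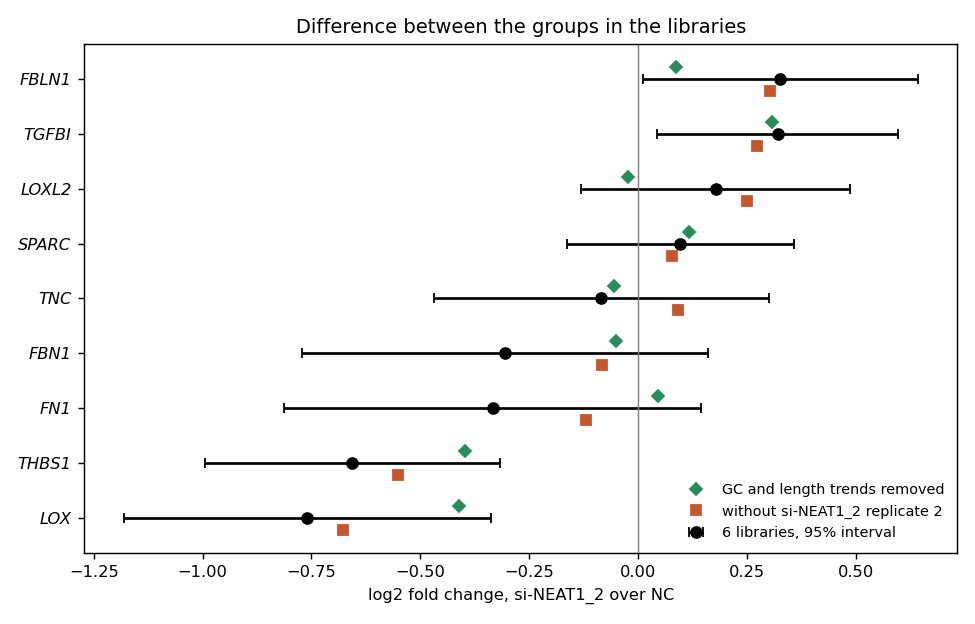
Log2 fold change (si-NEAT1_2 over NC) of the 9 members tested, as black points with 95% intervals from the 6 libraries, green diamonds after removal of GC and length trends, and orange squares without si-NEAT1_2 replicate 2. The intervals of THBS1 and LOX lie below 0 and those of TGFBI and FBLN1 above it, and the green value of FN1 is at 0.05.

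Fold changes of all genes moved with the base composition of their transcripts. In 5 equal bins of genes from the lowest to the highest GC content of the longest transcript, the median log2 fold change was -0.37, -0.18, 0.02, 0.17 and 0.28. Over the 9 members, Pearson's r between GC content and log2 fold change was 0.795, and over 12581 genes it was 0.579. These points share the same 6 libraries. LOX, at 39.6% GC, had the most negative log2 fold change of the members and FBLN1, at 57.0% GC, the most positive, while FN1 was at 42.2% and LOXL2 at 58.2% GC.

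After GC and length trends were removed from each library, the log2 fold change was 0.05 for FN1, -0.05 for FBN1, 0.09 for FBLN1 and -0.02 for LOXL2. TGFBI, at 50.6% GC, was at 0.31. THBS1 was at -0.40 and LOX at -0.41, both lower at an unadjusted p under 0.05 with TGFBI higher, where 8% of all genes were lower and 8.09% higher. The part of base composition in these differences was not tested further.

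**Figure D3:**
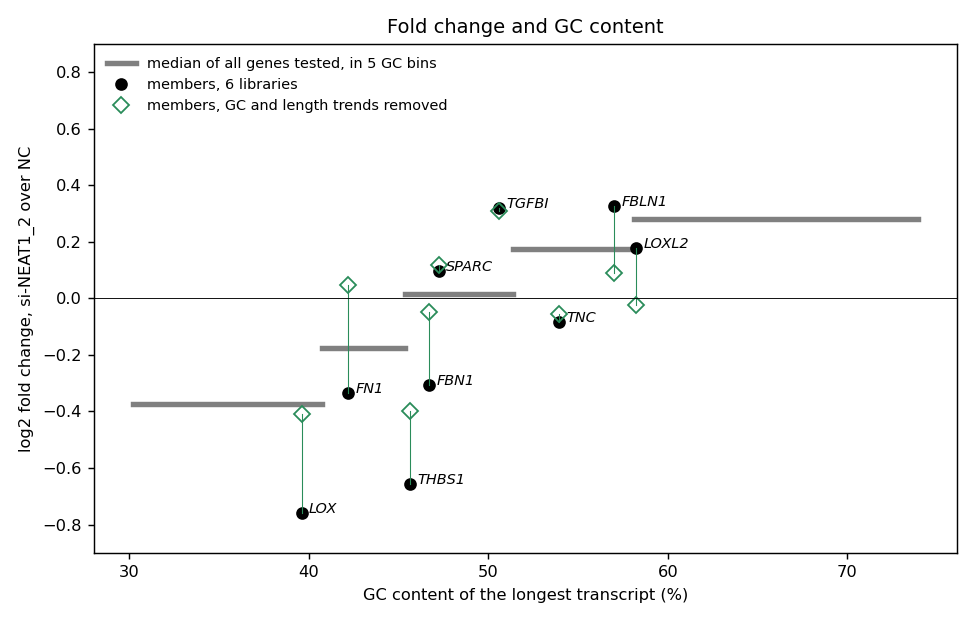
Log2 fold change of the members against the GC content of the longest transcript (%), as black points, with open green diamonds for the values after GC and length trends were removed, and grey bars for the median of all genes in each of 5 GC bins. The grey bars climb from -0.37 to 0.28, and FN1 lies at -0.33 before and 0.05 after.

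Genes whose levels followed FN1 most closely over the 6 libraries were KIAA1671 (Pearson's r = 0.999 of log2 CPM), GBF1 (0.997), HUWE1 (0.997), SRRM2 (0.996) and CIT (0.996), out of 5653 genes that averaged 5 or more in log2 CPM. Of the members, FBN1 (0.949), TNC (0.915), THBS1 (0.800) and LOX (0.739) went with FN1 over the libraries. LOXL2 (0.160) did so little, and SPARC (-0.470), FBLN1 (-0.561) and TGFBI (-0.663) went the other way. All of these values share the low FN1 reading of si-NEAT1_2 replicate 2 and describe these 6 libraries.

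TGM2, a transglutaminase that cross-links matrix proteins and acts as a fibronectin-binding co-receptor, was read at 378, 377 and 386 CPM in NC and 359, 334 and 425 CPM in si-NEAT1_2. The groups overlapped, with a log2 fold change of -0.03 (standard error 0.129, adjusted p = 0.897, edgeR). RELA, encoding p65, was read at 77.5, 66.6 and 77.2 CPM in NC and 81.2, 86.5 and 104 CPM in si-NEAT1_2. These groups did not overlap, and the log2 fold change was 0.30 (standard error 0.138, unadjusted p = 0.0535, adjusted p = 0.212, edgeR). In FPKM the RELA groups overlapped, and the difference was 0.02 on log2(FPKM + 1) values and 0.08 with GC and length trends removed.

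The genes that work with these proteins were read as 5 lists of 71 genes in all, of which 52 were tested and 0 were called. At an unadjusted p under 0.05, 7 were higher and 7 lower, beside 11.2% and 12.9% of all genes, and their median log2 fold change was -0.00. Among other matricellular proteins, 1 of 10 tested was lower, the growth factor-induced adhesion protein CCN2 (log2 fold change -0.38, unadjusted p = 0.00722), and 0 were higher. In this list 2 were lower and 0 higher with GC and length trends removed, and also without si-NEAT1_2 replicate 2. The 10 cross-linking and processing genes had 2 higher, LOXL1 (0.31) and the collagen lysyl hydroxylase PLOD1 (0.29), and 1 lower, the hydroxylase PLOD2 (-0.50). With GC and length trends removed, these had 1 higher and 0 lower.

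In the elastic fibre and microfibril list, 3 of 13 were higher and 0 lower, and with GC and length trends removed 0 were higher and 0 lower. These were LTBP3 (0.37) and LTBP4 (0.31), which bind latent TGF-beta, and the microfibril protein MFAP2 (1.39), which read 0.182 to 1.13 CPM. Among 8 receptor genes, the integrin subunit ITGB5 was higher at 0.56 (unadjusted p = 0.00154), whereas ITGAV (-0.52) and ITGB1 (-0.34), subunits of fibronectin receptors, were lower at an unadjusted p under 0.05. The CPM values of both overlapped between the groups, and the count of lower receptor genes was 0 without si-NEAT1_2 replicate 2 and 1 with GC and length trends removed.

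Of 11 upstream regulators, TGFB1 was higher, from 77.4, 65.5 and 74.3 CPM in NC to 92.3, 118 and 118 CPM in si-NEAT1_2 (log2 fold change 0.59, unadjusted p = 0.00132). TGFB2 (-0.44), the transcriptional coactivator YAP1 (-0.54) and the TGF-beta signal mediator SMAD4 (-0.31) were lower. With GC and length trends removed this list had 2 higher and 1 lower, and its median log2 fold change turned from -0.21 to 0.15. The adjusted p of every partner gene named for an unadjusted p under 0.05 lay between 0.170 and 0.205 (edgeR). With GC and length trends removed, 4 partner genes were higher and 4 lower.

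**Figure D4:**
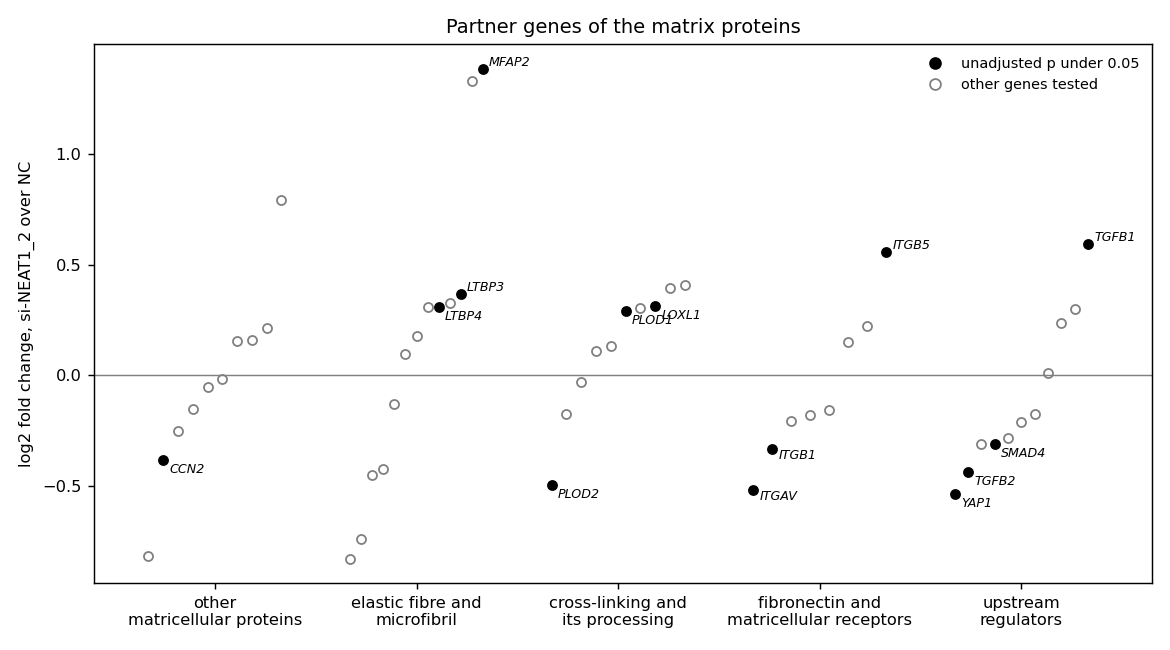
Log2 fold change (si-NEAT1_2 over NC) of the 52 partner genes tested, in 5 lists, with filled points for an unadjusted p under 0.05. Filled points lie on both sides of 0, 7 above and 7 below, with MFAP2 highest at 1.39.

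The group table gave a different account of the same genes. It holds the authors' own value for each group, without replicates, so that no test was possible, and levels are set side by side only. FN1 was listed at 2929 FPKM in NC and 1307 FPKM in si-NEAT1_2, a log2 ratio of -1.16. The NC value was above all 6 libraries, and the 95% interval of the libraries' own difference (-0.81 to 0.14) did not include this ratio.

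TGFBI was listed at 361 FPKM in NC and 142 FPKM in si-NEAT1_2, 2.55-fold lower, the opposite direction to the libraries. FBN1 went from 6.55 to 3 FPKM, 2.18-fold lower. With FN1 these made 3 of 9 members at least 2-fold lower and 0 at least 2-fold higher, beside 19% and 5.47% of 14003 genes. The si-NEAT1_2 value was the lower in 8 of 9 members and in 65.9% of those genes.

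TNC was the exception, from 53.8 to 76.2 FPKM or 1.42-fold higher. SPARC was at 333 and 331 FPKM, LOXL2 at 239 and 199.9 FPKM, LOX at 11.4 and 7.40 FPKM, and FBLN1 at 1.59 and 0.977 FPKM. For FBLN1 the lowest library read 4.96 times the higher of these values. Beside TGFBI, the sign differed between libraries and group table for FBLN1 (0.33 and -0.71) and LOXL2 (0.18 and -0.26). It also differed for TNC (-0.08 and 0.50) and SPARC (0.10 and -0.01). FN1, FBN1, THBS1 and LOX were lower in both. POSTN was listed at 0 in NC and 0.01 in si-NEAT1_2, for which no ratio is given.

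THBS1 differed most between the sources. It was listed at 1.34 FPKM in NC and 1.20 FPKM in si-NEAT1_2, while every library read at least 113 times the higher of these values. Its log2 ratio in the group table was -0.16 from FPKM and -0.73 from the table's counts scaled to the group totals. Both group values lay more than 100 times below every library in 0.474% of 7804 genes, those at 5 FPKM or more in all libraries or in both group columns, and more than 10 times below in 1.18% or above in 1.29%. THBS1 was the 1 member below by such a factor, and 0 members were above by it. All 9 members with a ratio had at least 1 group value outside the range of the 6 libraries, as did 86.3% of those genes. LOX was the reverse, with a group value of NC 4.78 times the mean of the NC libraries. Spearman's correlation across genes was 0.690 to 0.781 between a library and a group column, 0.905 to 0.989 between libraries, and 0.924 between both group columns. TGM2 was listed at 1008 and 336 FPKM and RELA at 81.8 and 99.2 FPKM, all above every library. The log2 ratio of TGM2 from FPKM in the group table was -1.59. Its log2 fold change in the libraries was -0.03 from counts and -0.18 on log2(FPKM + 1) values. Counts for NC in the group table were 180 for THBS1 and 64212 for TGM2, while the NC libraries averaged 54149 and 9739 counts. For these genes the NC group values were therefore not means of the NC libraries. The paper reported TGM2 among the mRNAs that were lower after the knockdown. The percentage it gave equals, when rounded, the change of TGM2 in the group table (-66.7%). By qRT-PCR and western blotting the paper also found lower TGM2 in papillary thyroid carcinoma cells given si-NEAT1_2. Which samples lay behind the group values was not tested.

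**Figure D5:**
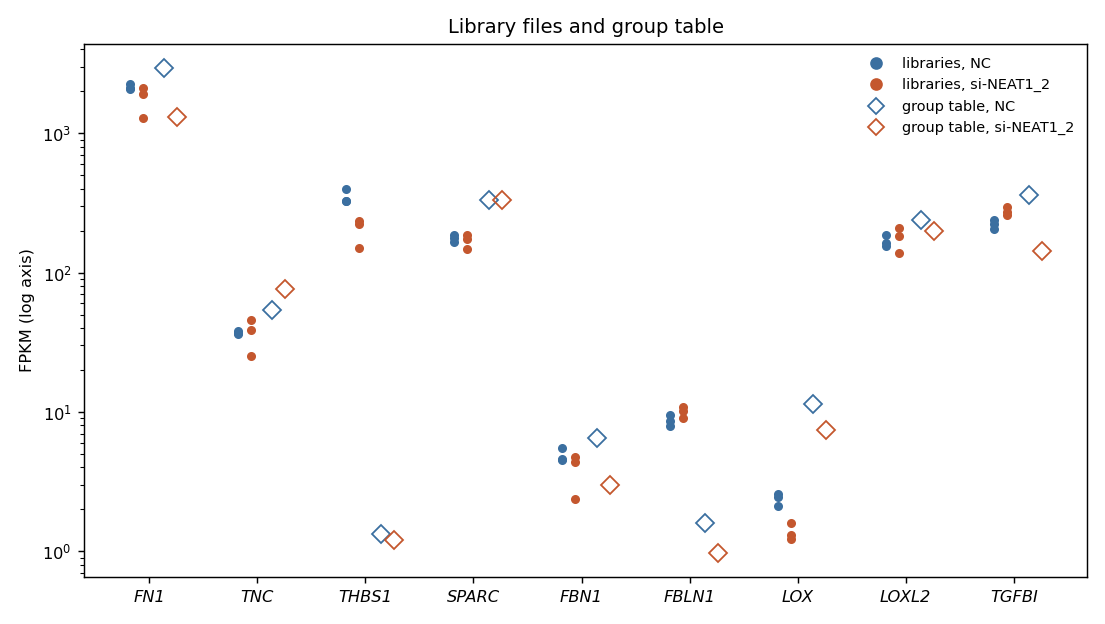
FPKM (log axis) of the 9 members other than POSTN, with filled points for the 3 NC and 3 si-NEAT1_2 libraries and open diamonds for the group table. The diamonds of THBS1, at 1.34 and 1.20 FPKM, lie far below its points, and those of LOX above its points.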

How the data were processed

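RNA of 3 NC and 3 si-NEAT1_2 K1 libraries was enriched with oligo(dT) beads and depleted of rRNA. Per the paper's methods the authors mapped reads with TopHat2 and quantified with RSEM, while the submitters' processing notes list fastp 0.18.0, Bowtie2 2.2.8, HISAT2, StringTie 1.3.1 and GRCh38. The deposited expected counts are estimates per gene and not normalized. The deposited FPKM values are scaled by the authors for length and library size. Columns with values of a sample but no matching label numbered 0.

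Expected counts were rounded, filtered with filterByExpr, scaled by TMM and fitted with edgeR 4.0.16 (R 4.3.3) over all 13109 genes, which was checked on simulated data. The simulated counts had the same dispersion in every gene and a GC trend nearly balanced between the groups. The check therefore does not cover a GC trend that runs with the group, as it did here. Exact permutation tests were two-sided. GC content and length came from GENCODE for 96.0% of genes, and their trends were removed by splines with 5 degrees of freedom per library. Alternatives used limma 3.58.1 on log2(FPKM + 1) or log2(FPKM + 0.1), DESeq2 1.42.0, no TMM, no filter, a replicate block, the library code as covariate and omission of each library. The genes in the group table's shares had at least 0.1 FPKM in a group. Members and lists were chosen with earlier results of these data known. All members were named, with TGM2, RELA, the 5 genes most correlated with FN1 among genes averaging 5 or more in log2 CPM, and partner genes with an unadjusted p under 0.05, at most 4 a list. SRFBP1, ENTPD4 and the markers were named beside them.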

Additional observations from a re-analysis of the deposited data

How the results depend on the processing

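Results past or short of a threshold moved with the processing, and where no value is given beside it the cause was not tested. Genes called numbered 0 by edgeR, 1 without TMM, 18 without the filter, 4 with GC and length trends removed, 1 by limma on log2(FPKM + 0.1) and 60 by DESeq2, which gave no adjusted p for 2289. Leaving out each library gave 0 to 216, with 216 without si-NEAT1_2 replicate 1 and 3 without si-NEAT1_2 replicate 2, where fewer samples were fitted. The 2 members higher at an unadjusted p under 0.05 became 1 without TMM, without the filter and with the library code as covariate. They also became 1 with GC and length trends removed and on both FPKM scales, and 0 to 2 when a library was left out. Over all genes, in either direction, 3165 of 13109 passed in the main fit. This count was 2904 without TMM, 3717 of 18808 without the filter and 3732 with the library code. With GC and length trends removed it was 2109, and on log2(FPKM + 1) and log2(FPKM + 0.1) values 2794 and 2769. The 7 higher partner genes became 3 without TMM, 4 with GC and length trends removed, 4 on both FPKM scales and 2 to 9 when a library was left out. The 7 lower ones became 4 with GC and length trends removed and 3 to 9 when a library was left out (3 without NC replicate 2).

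FN1 reversed to 0.0460 and LOXL2 to -0.0218 with GC and length trends removed, and SPARC to -0.06 (-0.0615 with a pseudocount of 1, -0.0619 with 0.1) on FPKM values. Leaving out each library gave -0.27 to 0.0917 for TNC, -0.75 to -0.55 for THBS1 and -0.13 to 0.0337 for TGM2, the upper ends of TNC and TGM2 being without si-NEAT1_2 replicate 2. THBS1 (-0.66) and LOX (-0.77) passed an adjusted p of 0.05 with DESeq2. Within library code L3, an alternative chosen after the data were seen, TNC was at 0.19. In the group table, 5 ratios moved on another scale, 22 did not and 0 reversed.

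The study's methods speak of 3 pairs of cells, but no label ties a number to a shared culture or day. Same-numbered libraries had correlations of -0.282, -0.365 and -0.00797 in their deviations from the group means. These values cannot decide the pairing, because si-NEAT1_2 replicate 2 stood apart and enters the si-NEAT1_2 mean of every gene. With the replicate block, at an unadjusted p under 0.05, 0 members were higher and 2 lower (THBS1 and LOX). Of the partner genes 2 were higher and 4 lower. Over all genes 1538 of 13109 passed in either direction, against 3165 without the block. With the block and GC and length trends removed 1 member was higher and 1 lower, and 3 partner genes were higher and 4 lower. Over all genes 1240 of 13109 passed there. In that fit FN1 was at 0.0372 and LOXL2 at -0.0289. Depth limited POSTN, at 1 to 6 counts.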
